A study of Sus scrofa with 599 samples.

Results

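Steroid hormone signalling in pig adipose tissue (AT) was described through 8 genes: the cortisol-regenerating enzyme HSD11B1, the receptors NR3C1, NR3C2, ESR1 and PGR, and the glucocorticoid-induced genes FKBP5, TSC22D3 and SGK1. They were chosen by symbol, with no measured value in the rule, and looked up by Ensembl identifier in the deposited TPM (transcript abundance scaled by length and library) table of protein-coding genes (PCGs). Of the 8 genes, 7 had a row among the 21280 PCGs of the table. No row was matched to TSC22D3 (chrX:88171325-88233583, minus strand), so no value is given for it. On Sscrofa11.1, by RefSeq, the others lie at chr9:133231451-133278396 (HSD11B1), chr2:144822937-144956451 (NR3C1), chr8:80303172-80669050 (NR3C2), chr7:31441764-31550704 (FKBP5), chr1:29625786-29753619 (SGK1), chr1:14217032-14604906 (ESR1) and chr9:32035684-32129776 (PGR). NR3C2 and SGK1 are on the plus strand and the other 5 on the minus strand.

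Glucocorticoids act through the glucocorticoid receptor, encoded by NR3C1, which moves to the nucleus once it binds cortisol and switches on genes that carry its response element. The enzyme encoded by HSD11B1 makes active cortisol from inactive cortisone inside adipocytes and stromal cells, so the level within the tissue can differ from that in blood. FKBP5, a co-chaperone of HSP90 that lowers the affinity of the receptor for cortisol, is among the most widely used read-outs of receptor activity. The mineralocorticoid receptor NR3C2 also binds cortisol and is needed for adipocyte differentiation in culture. ESR1 and PGR are the receptors of oestrogen and progesterone, and PGR is a known oestrogen target in reproductive tissues.

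RNA came from 4 depots of adult female Bama pigs, a miniature breed, which were 2 years old at the start. The upper layer of backfat (ULB) is subcutaneous (SAT), and greater omentum (GOM), mesenteric (MAD) and retroperitoneal adipose (RAD) are visceral (VATs). NC pigs stayed on the normal diet, WG pigs were fed high-fat feed over 22 weeks, and WL pigs had the same 22 weeks followed by 12 weeks at 10% of the normal caloric intake. The RNA-seq samples numbered 9, 12, 12 and 5 in NC, 45, 36, 39 and 38 in WG and 10 in each depot of WL (GOM, MAD, RAD and ULB, in this order). WL pigs were 12 weeks older than WG pigs when sampled, and the effects of age and of restriction cannot be told apart. The tissues are mixtures of cells, in which fewer cells of a type and less RNA per cell cannot be told apart.

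Counts on PCGs ran from 3337098 to 22939419 per library, with a median of 16791659. ADIPOQ, the adipocyte hormone gene, had group medians of 1810 to 4983 TPM, so each group carried the RNA of adipocytes. PCGs held less than 88% of the summed TPM in 40 libraries, among them 7 of the 9 NC GOM libraries, 6 of 12 in NC RAD, and 6 of 10 in both WL GOM and WL MAD, against 0 to 3 in the WG groups. Values without these libraries are given wherever they end a call. The WG GOM library of replicate 35 stood apart, since its median correlation with its group over 13843 genes was 0.615 and that of every other library at least 0.882. It held the lowest HSD11B1 (18.2 TPM), NR3C1 (11.8 TPM), FKBP5 (34.9 TPM) and SGK1 (35.2 TPM) and the highest PGR (35.1 TPM) of the 45 libraries of its group.

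TPM is per transcript length, so levels of different genes can be set side by side. By median, FKBP5 was the most abundant of the 7 genes in all 4 depots of NC and WG, and its group medians ran from 65.4 TPM in WL ULB to 223 TPM in WG MAD. In WL the first place went to HSD11B1 in GOM, SGK1 in MAD and RAD, and NR3C1 in ULB. The group medians of these 3 genes lay between 44.99 and 151 TPM. NR3C2, ESR1 and PGR had lower group medians, of 7.40 to 11.4 TPM, 4.86 to 12.3 TPM and 2.17 to 37.9 TPM. All 7 exceeded 0.5 TPM in every sample, so each passed the filter on low values in every comparison.

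**Figure D1:**
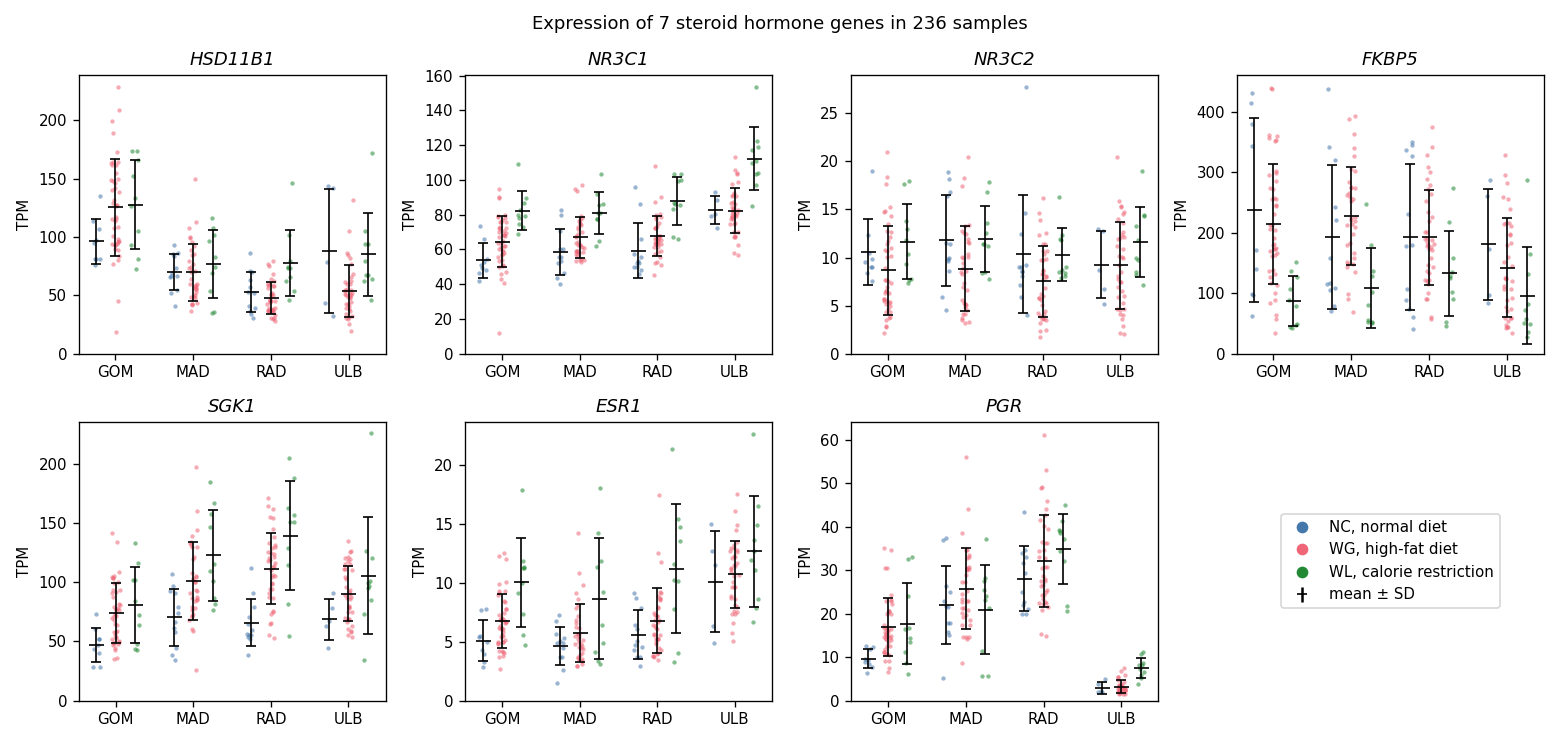
TPM (vertical, linear axis from 0) of the 7 genes in each RNA-seq sample, by depot (horizontal) and diet (colour), with bars for the group mean ± SD. PGR is lowest in ULB in all 3 diets, with medians of 2.17, 2.92 and 7.70 TPM, and the WL points of FKBP5 reach at most 287 TPM where NC and WG reach 440.4 TPM.

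Diet was compared within each depot and depot within each diet by edgeR's quasi-likelihood test, and a gene was called at an adjusted p below 0.05 with a fold change above 1.5. Of the 210 pairs of gene and comparison, 45 were called. WG differed from NC in 3 of 28, WL from WG in 6 of 28 and WL from NC in 7 of 28, and these comparisons share samples with each other. For scale, the shares of all tested PCGs that were called in GOM, MAD, RAD and ULB were 26.7%, 10.7%, 16.7% and 2.38% for WG over NC, 5.26%, 17.4%, 6.37% and 8.12% for WL over WG, and 36.1%, 33.1%, 26.7% and 14.8% for WL over NC. Depots differed in 8 of 42 pairs in NC, 13 of 42 in WG and 8 of 42 in WL. The background shares, in the order MAD over GOM, RAD over GOM, ULB over GOM, RAD over MAD, ULB over MAD and ULB over RAD, were 17.7%, 19.5%, 25.4%, 2.41%, 7.73% and 4.32% in NC. They were 6.27%, 11.2%, 17.9%, 5.4%, 14.4% and 9.27% in WG, and 5.97%, 12.2%, 16%, 7.31%, 14.4% and 4.34% in WL. With libraries of at least 88% PCG share, fewer genes of the whole table were called in most comparisons with NC or WL: in the same orders the shares were 2.73%, 7.78%, 6.2% and 0.35% for WG over NC, 1.49%, 0.948%, 6.96% and 7.48% for WL over WG, and 37.8%, 12.2%, 14.9% and 8.67% for WL over NC. Between depots they were 1.39%, 2.6%, 14%, 0.82%, 6.06% and 1.49% in NC, 5.97%, 11%, 17.6%, 5.43%, 14.1% and 9.11% in WG, and 1.13%, 4.41%, 9.92%, 0.75%, 5.97% and 3.65% in WL. The median log2 fold change over all tested genes stayed between -0.04 and 0.04 in all 30 comparisons.

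HSD11B1 had its highest median in GOM in each diet. In GOM it ran from 76.4 through a median of 94.7 to 135 TPM in NC, from 18.2 through 127 to 229 TPM in WG, and from 72.9 through 129.8 to 174 TPM in WL. RAD held 30.98, 52.6 and 86.1 TPM (lowest, median and highest) in NC, 27.9, 44.99 and 79.8 TPM in WG, and 46.1, 73.8 and 146 TPM in WL. The GOM and RAD ranges overlapped in each diet. On the log2 scale, HSD11B1 was lower in RAD than in GOM by fold changes of -0.80 ± 0.19 (SE, n = 12 and 9, adjusted p = 0.00298) in NC, -1.31 ± 0.11 (n = 39 and 45, adjusted p = 1.43e-17) in WG and -0.69 ± 0.18 (n = 10 and 10, adjusted p = 0.00875) in WL. With libraries of at least 88% PCG share, the NC value was -0.79 and was no longer called (adjusted p = 0.24), with 2 NC GOM libraries left.

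MAD and ULB also fell below GOM in WG, by log2 fold changes of -0.80 ± 0.12 (adjusted p = 4.52e-08) and -1.09 ± 0.13 (adjusted p = 1.52e-11), and in WL, by -0.68 ± 0.20 (adjusted p = 0.0453) and -0.59 ± 0.20 (adjusted p = 0.0319). The WL values were near the threshold: MAD lost its call with libraries of at least 88% (-0.82, adjusted p = 0.0603), and ULB with DESeq2 (-0.58, adjusted p = 0.0192), where its fold was below 1.5. In NC the 5 ULB samples held 142, 43.1, 144, 32.7 and 78.2 TPM. Of these, 2 lay above the GOM range, 2 below it and 1 inside it, and ULB over GOM was not called (-0.20 ± 0.28, adjusted p = 0.608). The 2 low values were those of the libraries below 88% PCG share (means of 37.9 TPM against 121.6 TPM in the other 3), whose part was not tested. The mesothelial markers with a row (WT1, KRT8 and KRT18, 3 of 6 listed) moved with the GOM level: their summed TPM was 55.6 to 705 in the 3 GOM groups, with medians of 174, 178 and 273, and had medians of 8.16 to 17.2 in the other 9 groups. Single libraries of those 9 groups reached up to 183 (WG RAD), so the ranges overlapped. Their part in the HSD11B1 difference was not tested.

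Among the diet comparisons, HSD11B1 was called once: it was higher in RAD of WL than of WG pigs, by 0.62 ± 0.15 on the log2 scale (adjusted p = 0.0049). At 0.57 (adjusted p = 0.0187) its fold fell below 1.5 with libraries of at least 88%. In ULB the WL over WG value was 0.51 ± 0.21 (adjusted p = 0.0776), and it was called with those libraries (0.65, adjusted p = 0.0489). The same libraries also gave calls for WG over NC in ULB (-1.27, adjusted p = 0.0362, against -0.79 and 0.123 with all) and for WL over NC in GOM (0.73, adjusted p = 0.00598, against 0.10 and 0.625). The latter rested on 2 NC GOM libraries.

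NR3C1, the glucocorticoid receptor, was called in 0 of the 30 comparisons, with folds below 1.5 throughout. WG over NC was within -0.15 and 0.01 in the 4 depots (adjusted p = 0.526 to 0.971). In GOM, MAD, RAD and ULB, WL over WG was 0.32 ± 0.12, 0.24 ± 0.08, 0.31 ± 0.08 and 0.33 ± 0.08, and its adjusted p was 0.0735, 0.0174, 0.00469 and 0.00137. These are folds of 1.25, 1.18, 1.24 and 1.26, and none reached the fold of 1.5 that a call needs. Medians in WG and WL were 65.1 and 79.8 TPM in GOM, 63.1 and 81.0 TPM in MAD, 65.4 and 86.3 TPM in RAD, and 81.1 and 110.4 TPM in ULB. ULB thus held the highest median in each diet, with 80.1 TPM in NC against 50.8 to 55.8 TPM in the VATs. ULB over each VAT passed the adjusted p but not the fold in WG (0.46, 0.34 and 0.30 over GOM, MAD and RAD) and in WL (0.44, 0.42 and 0.32). In NC the 5 ULB samples held 79.4, 72.1, 92.8, 80.1 and 88.5 TPM, 4 of them above the GOM range of 41.99 to 73.5 TPM and 1 inside it. ULB over GOM was 0.57 ± 0.13 (adjusted p = 0.00345) and was called with DESeq2 (0.59, adjusted p = 0.000119), where its fold passed 1.5.

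NR3C2, the mineralocorticoid receptor, was lower in WG than in NC pigs in the 3 VATs. In GOM its lowest, median and highest values were 7.57, 9.50 and 19.02 TPM in NC and 2.16, 7.40 and 20.9 TPM in WG. MAD held 4.59, 10.7 and 18.9 TPM in NC and 3.22, 8.57 and 20.4 TPM in WG, and RAD held 4.02, 8.78 and 27.7 TPM in NC and 1.78, 7.79 and 16.2 TPM in WG. The ranges of the 2 diets overlapped in each depot, with the lowest samples in WG. Log2 fold changes were -0.60 ± 0.22 (adjusted p = 0.0263) in GOM, -0.65 ± 0.21 (adjusted p = 0.0234) in MAD and -0.70 ± 0.21 (adjusted p = 0.00869) in RAD. These calls were not firm: with libraries of at least 88% the values stayed at -0.82, -0.65 and -0.70 but none was called (adjusted p = 0.206, 0.0557 and 0.117), and without WG GOM replicate 35 the GOM fold fell below 1.5 (-0.56, adjusted p = 0.0314). A term for libraries below 88% ended the RAD call as well (-0.70, adjusted p = 0.105). In ULB the value was -0.20 ± 0.32 (adjusted p = 0.847), and no difference of the diet effect between depots was found (adjusted p = 0.769, edgeR's F test of the interaction). WL over WG was 0.25 to 0.41 and not called in any depot. NR3C2 differed between depots in 0 of 18 comparisons, all within -0.36 and 0.30.

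FKBP5 was lower after weight loss. In GOM its lowest, median and highest values were 61.9, 172 and 431 TPM in NC, 34.9, 205 and 440.4 TPM in WG, and 43.03, 84.2 and 151 TPM in WL. In MAD they were 70.8, 138 and 437 TPM, then 69.3, 223 and 393 TPM, then 50.2, 91.6 and 247 TPM. In RAD they were 41.7, 178.5 and 351 TPM, then 57.3, 182 and 375 TPM, then 46.4, 127 and 274 TPM. The WL medians were the lowest of the 3 diets in each VAT, and the ranges overlapped. In ULB the 5 NC samples held 261, 287, 97.9, 84.7 and 173 TPM, WG 34.4, 124 and 329 TPM, and WL 28.1, 65.4 and 287 TPM. The lowest ULB median was again in WL, in which 1 sample at 287 TPM lay far above the next at 165.5 TPM.

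Against WG, FKBP5 fell by 1.33 ± 0.27 on the log2 scale in GOM (n = 10 and 45, adjusted p = 0.000735), by 1.14 ± 0.22 in MAD (n = 10 and 36, adjusted p = 0.000147) and by 0.64 ± 0.22 in RAD (n = 10 and 39, adjusted p = 0.0406). In ULB the value was -0.69 ± 0.31 (n = 10 and 38, adjusted p = 0.121) and was not called. Against NC it fell by 1.73 ± 0.36 in GOM (adjusted p = 0.000353), by 1.11 ± 0.33 in MAD (adjusted p = 0.00991) and by 0.93 ± 0.35 in RAD (adjusted p = 0.0384), and stood at -1.22 ± 0.43 in ULB (adjusted p = 0.0537). No difference between the 4 depots was found for WL over WG (adjusted p = 0.706) or WL over NC (adjusted p = 0.647). WG over NC ranged from -0.52 to 0.02 and was not called. Between depots FKBP5 was called once, lower in ULB than in MAD of WG pigs (-0.67 ± 0.16, adjusted p = 0.000468). With the replicate number as a block, ULB over GOM in WG (-0.604, adjusted p = 6.57e-07) and RAD over GOM in WL (0.604, adjusted p = 0.0248) were called too. With no filter on low genes both RAD calls were lost by a small margin (adjusted p = 0.0507 against WG and 0.0513 against NC), and the ULB value against NC was called without NC ULB replicate 7 (-1.39, adjusted p = 0.034).

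The PCG share of the library moved with FKBP5 in WL. The WL mean was 173 TPM in 4 MAD libraries of at least 88% and 65.7 TPM in the 6 below, and 154 TPM in 8 RAD libraries against 49.5 TPM in 2. In GOM it was 81.7 TPM in 4 libraries against 91.1 TPM in 6, and in ULB 105 TPM in 7 against 75.3 TPM in 3. With libraries of at least 88% in both groups, the GOM decrease was as large (log2 fold change -1.52, adjusted p = 0.0298), while the MAD and RAD values shrank to -0.53 (adjusted p = 0.341) and -0.48 (adjusted p = 0.147). Against NC the GOM value was -2.03 (adjusted p = 0.0317), and MAD and RAD fell out of the calls at -0.50 (adjusted p = 0.441) and -0.30 (adjusted p = 0.611). That GOM value rested on 2 NC libraries, with FKBP5 at 7.13 and 8.70 on the log2(TPM + 1) scale, and 37.8% of all tested PCGs were called there.

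**Figure D2:**
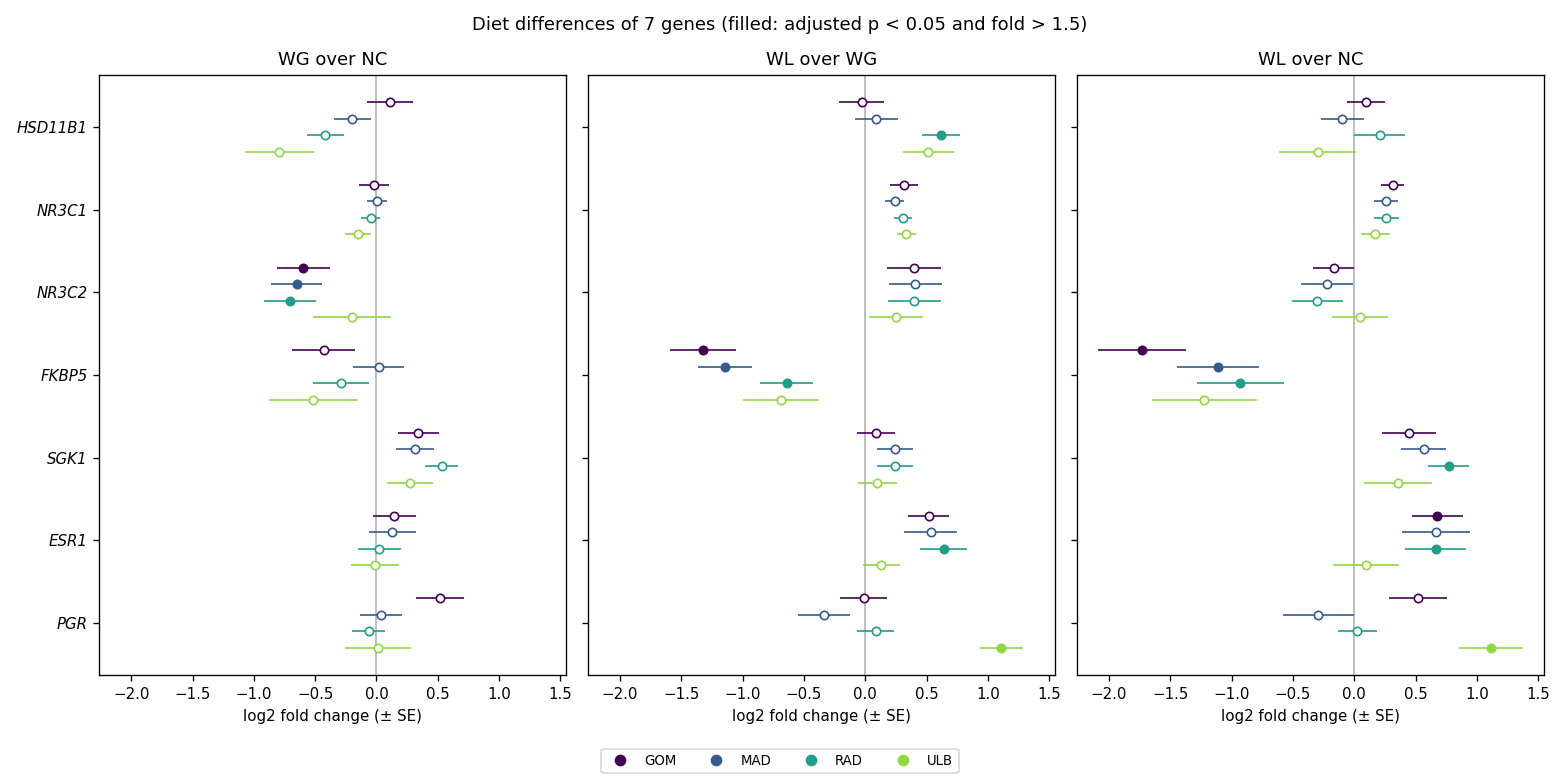
Log2 fold changes with standard errors (horizontal) of the 7 genes (vertical) for WG over NC, WL over WG and WL over NC, by depot. FKBP5 lies left of 0 in all 4 depots after weight loss (-0.64 to -1.33 against WG), and PGR lies farthest right in ULB (1.11 against both WG and NC). Filled points passed the test and the fold.

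The sequence bound by the activated receptor was looked for at each gene. The full palindromic glucocorticoid response element was searched on both strands as AGAACA, any 3 bases and TGTTCT (the pattern is its own reverse complement), in each gene with 10 kb on either side. It occurred at 2 places in FKBP5 and at 0 in the windows of the other 6 genes, and 2.18% of 17562 genome windows of the same length as that of FKBP5 held it at least once. Both matches lie in introns by the RefSeq annotation. The sequences below are from the RefSeq Sscrofa11.1 genome, minus strand, 5′ to 3′, with the matched element in capitals. They are shown because the element is the known route by which glucocorticoids raise FKBP5. The first is at chr7:31467767-31467827, 82900 bases after the start of the gene, and the second at chr7:31513946-31514006, 36721 bases after it.
FKBP5 distal element: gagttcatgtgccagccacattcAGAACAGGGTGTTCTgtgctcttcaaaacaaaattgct
FKBP5 proximal element: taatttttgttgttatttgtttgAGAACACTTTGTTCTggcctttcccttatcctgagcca
The distal element lay inside a deposited H3K27ac enhancer region in 17 of the 18 tables, 5 of them with a super-enhancer mark, and the proximal one in 9 of 18 tables, with 0 such marks. FKBP5 had a region within 10 kb in all 18 tables, and how often other stretches of the locus lay inside one was not compared. A looser core (GNACA, any 3 bases and TGTNC) had 6 matches each in the windows of FKBP5 and ESR1, 4 in SGK1, 3 each in NR3C1 and NR3C2, 2 in PGR and 1 in HSD11B1, and 57.6% to 99.4% of windows of the same lengths held it. A match is a description of the letters and not evidence of binding. The oestrogen response element (GGTCA, any 3 bases and TGACC), searched in the same way, occurred once in NR3C2 and in 0 of the other 6 windows, PGR included, and 9.78% of windows of the length of that of PGR held it.

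SGK1, a kinase gene induced by both glucocorticoids and mineralocorticoids, did not follow FKBP5. In RAD its lowest, median and highest values were 38.6, 57.8 and 112 TPM in NC, 53.1, 114 and 171 TPM in WG, and 54.7, 151 and 205 TPM in WL. The medians stood in this order while the ranges overlapped. WL over NC was called in RAD at 0.77 ± 0.17 on the log2 scale (adjusted p = 0.000973), and WG over NC there was 0.53 ± 0.13 (adjusted p = 0.00163), a fold of 1.45. In the other depots WL over NC was 0.44, 0.57 and 0.36 (GOM, MAD and ULB; adjusted p = 0.0966, 0.0138 and 0.389). With libraries of at least 88% it was called in GOM (0.99, adjusted p = 0.00395) and MAD (0.90, adjusted p = 0.0134) too, the former with 2 NC GOM libraries left. Between depots SGK1 was higher in RAD than in GOM in WG (0.68 ± 0.09, adjusted p = 1.34e-09) and in WL (0.80 ± 0.21, adjusted p = 0.0095), the latter not with libraries of at least 88% (0.45, adjusted p = 0.27).

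The immediate early genes, which respond within minutes to handling or injury, moved in the same direction as SGK1, which was called over GOM in RAD only. For SGK1, MAD over GOM was 0.49 in WG and 0.65 in WL (adjusted p = 0.0519), not called. ULB over GOM was 0.40 in WG and 0.37 in WL (adjusted p = 0.3), not called either. All 5 that were measured (FOS, FOSB, JUNB, EGR1 and ATF3; 5 of 6 listed) were called higher in MAD, RAD and ULB than in GOM in both WG and WL, and 4 of 5 were called higher in RAD of both WG and WL pigs than of NC pigs. Their summed TPM had medians of 596 in NC RAD, 1342 in WG RAD and 2230.0 in WL RAD, with ranges of 172 to 1572, 569 to 2730.0 and 1082 to 3305. Among libraries of at least 88%, 1, 4 and 3 of the 5 were called higher in MAD, RAD and ULB than in GOM in WL, and 2 in WG RAD and 4 in WL RAD over NC. Their part in the SGK1 differences was not tested.

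ESR1 was higher in ULB than in GOM and MAD in NC and than in each VAT in WG, and WL pigs had more of it in GOM and RAD than NC pigs. In NC the 5 ULB samples held 11.5, 4.86, 12.7, 6.35 and 14.96 TPM, against 2.87, 4.98 and 7.78 TPM (lowest, median and highest) in GOM and 1.51, 4.86 and 7.22 TPM in MAD. Of these 5 samples, 3 lay above both visceral ranges and 2 within them. The latter 2 were the libraries below 88% PCG share (means of 5.61 TPM against 13.04 TPM in the other 3), whose part was not tested. ULB exceeded GOM by 0.91 ± 0.25 on the log2 scale (adjusted p = 0.0113) and MAD by 1.10 ± 0.26 (adjusted p = 0.0118) in NC. With the replicate number as a block, which paired the 4 shared numbers of NC GOM and ULB, the value over GOM was 0.62 and no longer called (adjusted p = 0.245). A term for libraries below 88% also ended this call (0.70, adjusted p = 0.0829). In WG, ULB held 5.06, 11.02 and 17.5 TPM and exceeded GOM by 0.76 ± 0.10 (adjusted p = 3.06e-10), MAD by 0.94 ± 0.12 (adjusted p = 1.92e-10) and RAD by 0.69 ± 0.11 (adjusted p = 2.35e-07).

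In WL the ULB values were 0.34 (adjusted p = 0.292), 0.52 (adjusted p = 0.219) and 0.17 (adjusted p = 0.824) and not called. The visceral medians of WL were 10.6 TPM in GOM, 7.80 TPM in MAD and 10.9 TPM in RAD, against 6.55, 5.18 and 6.30 TPM in WG, and the ULB medians were 12.3 and 11.02 TPM. ESR1 was called for WL over WG in RAD (0.64 ± 0.19, adjusted p = 0.0222). The value for GOM was 0.52 ± 0.16 (adjusted p = 0.0366, fold 1.43), that for MAD 0.53 ± 0.22 (adjusted p = 0.0573) and that for ULB 0.13 ± 0.15 (adjusted p = 0.581). WL over NC was called in GOM (0.68 ± 0.21, adjusted p = 0.00957) and RAD (0.67 ± 0.25, adjusted p = 0.036), and both calls were lost with libraries of at least 88% at larger values (0.94, adjusted p = 0.172, and 0.76, adjusted p = 0.101). In MAD the WL over NC value of 0.67 just missed the call (adjusted p = 0.0508), and it was called with libraries of at least 88% (0.80, adjusted p = 0.0389) and with DESeq2 (adjusted p = 0.0366). The interaction of depot and diet was not called for ESR1 (adjusted p = 0.744 for WL over WG), so a smaller rise in ULB was not shown.

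Of the 7 genes, PGR had the widest depot differences. The 5 NC ULB samples held 1.90, 3.71, 2.17, 1.89 and 5.05 TPM, and NC RAD held 19.9, 27.2 and 43.4 TPM (lowest, median and highest), NC MAD 5.29, 21.6 and 37.4 TPM and NC GOM 6.23, 9.33 and 12.6 TPM. No NC ULB sample reached any visceral sample. In WG the values were 1.46, 2.92 and 7.46 TPM in ULB, 6.59, 15.4 and 35.1 TPM in GOM, 8.68, 23.9 and 56.1 TPM in MAD, and 14.97, 30.6 and 61.3 TPM in RAD. Here too ULB did not overlap MAD or RAD, and it overlapped GOM at the edge. In WL, ULB held 3.70, 7.70 and 11.2 TPM, GOM 6.12, 15.4 and 33.01 TPM, MAD 5.63, 23.7 and 37.1 TPM and RAD 20.5, 37.9 and 44.97 TPM, and only RAD did not overlap ULB.

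The fold between RAD and ULB was 10.4 in NC (log2 fold change -3.38 ± 0.26, adjusted p = 8.45e-08), 9.82 in WG (-3.29 ± 0.12, adjusted p = 2.18e-37) and 4.85 in WL (-2.28 ± 0.19, adjusted p = 4.78e-08). ULB over GOM was -1.82 ± 0.25 in NC (adjusted p = 5.17e-05), -2.31 ± 0.13 in WG (adjusted p = 2.55e-28) and -1.22 ± 0.24 in WL (adjusted p = 0.000565), and ULB over MAD was -2.92, -2.96 and -1.52 (adjusted p = 1.79e-05, 3.84e-32 and 0.000653). These 9 comparisons were called in every alternative that was run. Within the VATs, PGR was higher in RAD than in GOM in all 3 diets (1.56, 1.00 and 1.06) and higher in MAD than in GOM in NC (1.11) and WG (0.64). With libraries of at least 88%, the calls for MAD over GOM in NC (1.21, adjusted p = 0.232) and RAD over GOM in WL (0.77, adjusted p = 0.162) were lost. RAD over MAD in WL was 0.75 ± 0.27 (adjusted p = 0.0819), and it was called with the replicate number as a block, which paired these samples (0.90, adjusted p = 0.00711).

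**Figure D3:**
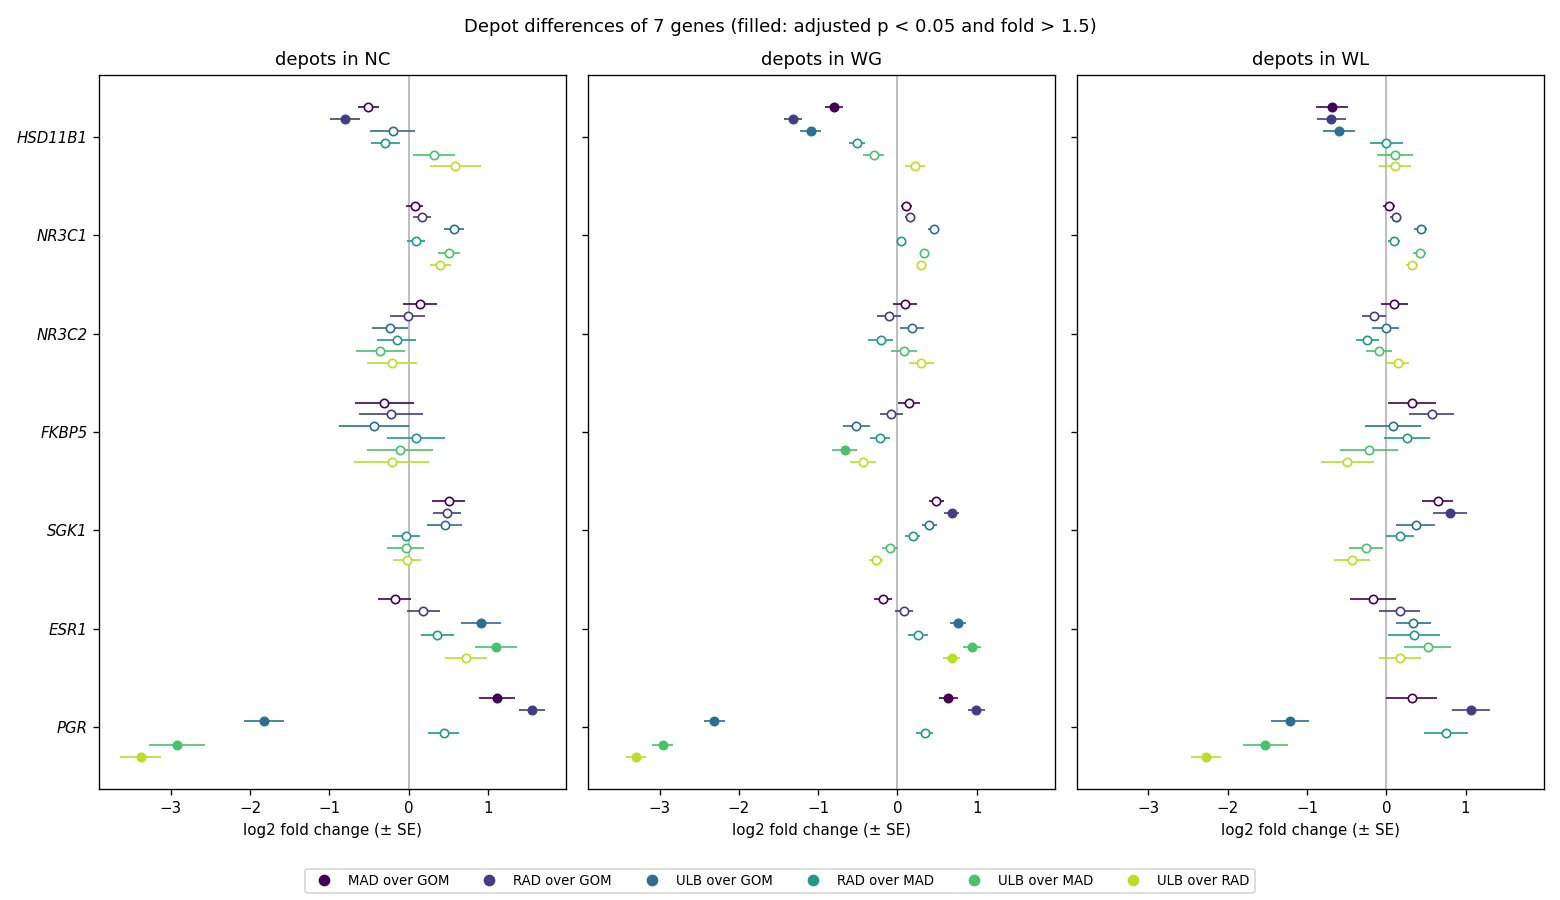
Log2 fold changes with standard errors (horizontal) of the 7 genes (vertical) for the 6 pairs of depots in NC, WG and WL. PGR in ULB against the VATs lies farthest from 0, at -1.82 to -3.38 in NC, -2.31 to -3.29 in WG and -1.22 to -2.28 in WL, while NR3C2 stays between -0.36 and 0.30.

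The diet effect on PGR differed between depots. In ULB, WL exceeded WG by 1.11 ± 0.18 on the log2 scale (fold 2.15, n = 10 and 38, adjusted p = 9.62e-06) and NC by 1.11 ± 0.26 (fold 2.17, n = 10 and 5, adjusted p = 0.00718). In GOM, MAD and RAD, WL over WG was -0.01, -0.34 and 0.08 (adjusted p = 0.978, 0.216 and 0.744). The interaction was called for WL over WG (adjusted p = 5.21e-05 by edgeR's F test, depot minus ULB -1.09, -1.42 and -1.02) and for WL over NC (adjusted p = 0.021, depot minus ULB -0.56, -1.40 and -1.08). The background shares of called PCGs in these tests were 6.41% and 8.32%, and 8.8% for WG over NC, in which none of the 7 genes was called. The WL over NC interaction was lost without NC ULB replicate 2 (adjusted p = 0.0534), without replicate 7 (adjusted p = 0.0577) and with libraries of at least 88% (adjusted p = 0.172), whereas WL over WG held in those alternatives (adjusted p at most 0.00428). Adipocyte markers moved in ULB with PGR: PLIN1, PLIN4 and ADIPOQ, 3 of 7 listed, were called higher in WL than in WG, by 0.69, 0.89 and 0.66, and with libraries of at least 88% PLIN4 alone was (1.26). Their part in the PGR difference was not tested.

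Chromatin at the genes was read from the deposited A-B index, a score without unit that is positive in the active A compartment and negative in the inactive B compartment, in bins of 20 kb. The bin that holds each start site was taken in 240 Hi-C samples, and tested with limma over 113298 autosomal bins. HSD11B1, NR3C1, NR3C2, FKBP5 and SGK1 were in A in all 240 samples. PGR was in B in all 240 samples, with group means from -4.005 (NC ULB) to -3.18 (NC RAD), although its transcript reached 61.3 TPM. ESR1 had group means of 0.45 (NC RAD) to 2.91 (WL GOM). It was in A in every GOM sample, and in B in some samples of the other depots: it was in A in 10 of 12 NC MAD, 9 of 12 NC RAD, 33 of 37 WG MAD, 39 of 40 WG RAD and 37 of 39 WG ULB samples.

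In WG, 9 of 21 pairs of gene and depot comparison (ULB against each VAT) were called at an adjusted p below 0.05, where 66.4% (GOM), 56.4% (MAD) and 58.3% (RAD) of all bins were. HSD11B1 had an index of 3.07 ± 0.56 (SD, n = 39) in ULB, against 4.68 ± 0.55 (n = 46) in GOM, 4.48 ± 0.57 (n = 37) in MAD and 4.38 ± 0.53 (n = 40) in RAD. The differences of -1.61, -1.41 and -1.31 were each called (adjusted p = 2.37e-21, 9.7e-16 and 2.92e-15 by limma), on a median over all bins of 0.108, 0.0886 and 0.098. The transcript of HSD11B1 in ULB was lower than in GOM but not lower than in RAD (log2 fold change 0.22, adjusted p = 0.167), so the order of the index and of expression differed. SGK1 had the opposite sign, with 3.17 in ULB and 2.19 in GOM (difference 0.98, adjusted p = 4.90e-11). ESR1, the transcript of which was higher in ULB than in GOM, had the lower index there, 1.09 against 1.94 (difference -0.86, adjusted p = 1.08e-06). PGR was not called between ULB and GOM (-0.11, adjusted p = 0.364) or RAD (0.09, adjusted p = 0.484), although its transcript was called in both. Its index was higher in ULB than in MAD by 0.31 (adjusted p = 0.0117). By the mean index over the gene, PGR was called lower in ULB than in GOM (-0.17, adjusted p = 0.0384). The same mean was not called against RAD (0.13, adjusted p = 0.144). After quantile normalization of the samples the PGR differences over GOM, MAD and RAD were -0.39 (adjusted p = 0.000539), -0.07 (adjusted p = 0.603) and -0.36 (adjusted p = 0.00332), so the difference over GOM was negative on both scales and the signs over MAD and RAD turned.

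WL over WG was called for 4 of 28 pairs, with background shares of 18%, 4.91%, 17.5% and 33.4% (GOM, MAD, RAD and ULB). In ULB the index of HSD11B1 rose by 1.38 ± 0.20 (SE, adjusted p = 6.21e-07), from 3.07 to 4.45, the level of the VATs, and that of NR3C1 by 0.61 ± 0.19 (adjusted p = 0.012). ESR1 rose by 0.97 ± 0.23 in GOM (adjusted p = 0.00344) and by 0.59 ± 0.20 in RAD (adjusted p = 0.0354). FKBP5 differed by -0.10, -0.04, 0.11 and 0.33 in GOM, MAD, RAD and ULB and was not called, and its group means lay between 4.20 and 4.54 in all 12 groups. After quantile normalization the ESR1 difference in RAD (0.37, adjusted p = 0.166) and the NR3C1 difference in ULB (0.42, adjusted p = 0.0693) were no longer called.

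**Figure D4:**
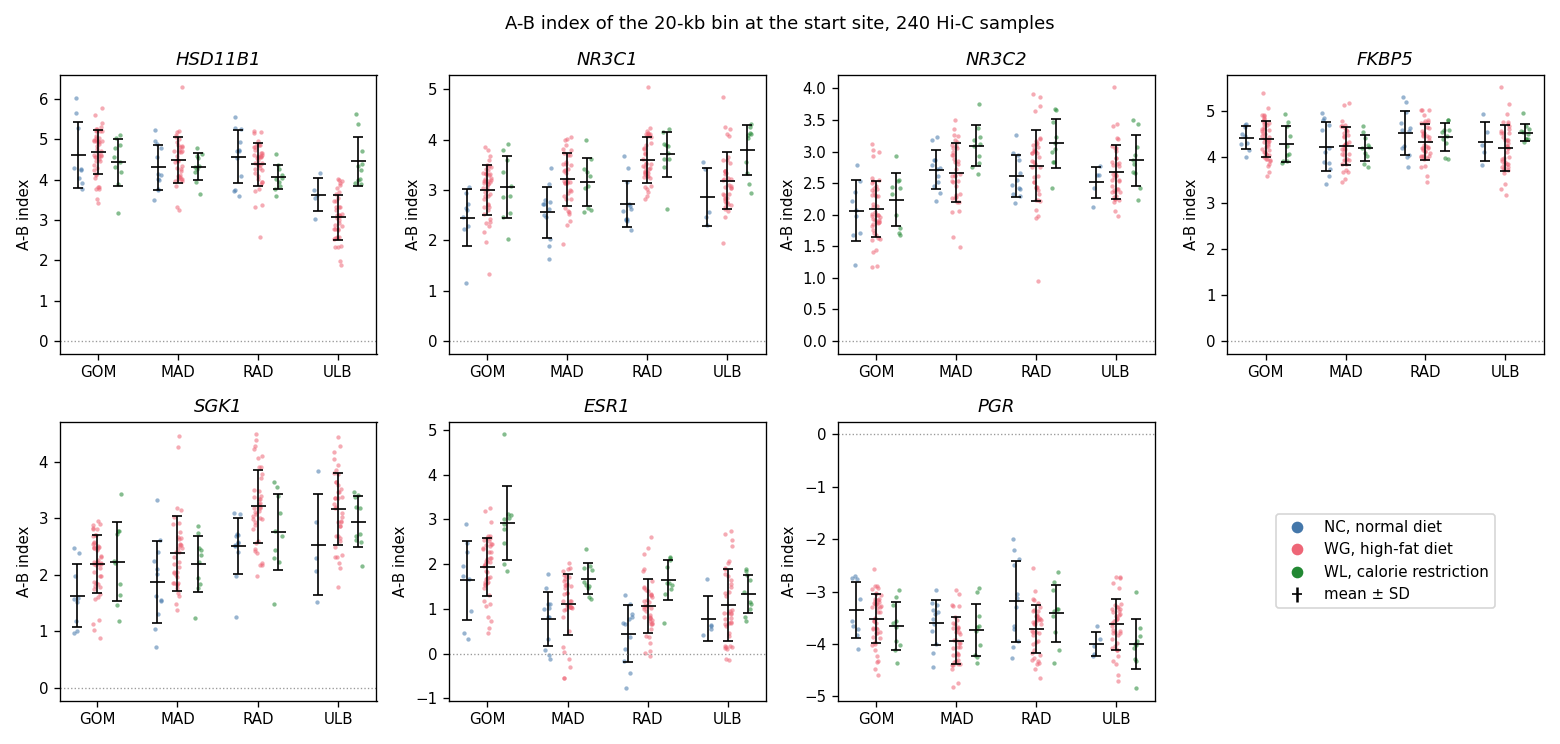
A-B index (vertical, no unit) of the 20-kb bin at the start site of each gene, in each of 240 Hi-C samples by depot (horizontal) and diet (colour), with bars for the group mean ± SD and a dotted line at 0. PGR lies below 0 in all 240 samples, and HSD11B1 is lowest in WG ULB, with a mean of 3.07 against 4.45 in WL ULB.

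H3K27ac, a mark of active enhancers, had been pooled within groups or WG subgroups, so the 18 deposited tables have no replicates and no test was made. WG subgroups had been formed by the submitters from estimated cell composition. Within 10 kb of the gene, HSD11B1, NR3C1, NR3C2, FKBP5, SGK1 and ESR1 had an enhancer region in all 18 tables, in which 65.2% to 85.6% of 18722 autosomal genes had any. PGR had a region in 8 of 18 tables: 1 of 5 of GOM, 3 of 5 of MAD, 4 of 4 of RAD and 0 of 4 of ULB. A super-enhancer overlapped FKBP5 in 12 tables, NR3C1 in 11, HSD11B1 in 7 and SGK1 in 4, and NR3C2, ESR1 and PGR in 0, where 5.72% to 27.8% of genes had such an overlap per table. The strongest region at FKBP5 ranked in the top 3.16% of its table by median. The 4 tables of WL and the 4 of NC each marked a super-enhancer at FKBP5, and the tables without such a mark were all of WG subgroups. The share of genes with such an overlap was 5.72% to 20.2% in the WG tables. It was 15.6% to 27.8% in those of NC and 15.6% to 19% in those of WL. With a flank of 50 kb a super-enhancer overlapped FKBP5 in all 18 tables.

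The other genes of these pathways were read from lists chosen by function. Of 14 measured glucocorticoid-induced genes, WL over WG was called for 0 higher and 1 lower in GOM, 1 and 3 in MAD, 0 and 1 in RAD, and 2 and 1 in ULB, with list medians of -0.20, -0.20, -0.05 and 0.06 where all genes had -0.04 to -0.01. The shares of all tested PCGs that were called were 5.26%, 17.4%, 6.37% and 8.12%, in the same order. KLF9, a transcription factor gene with a known glucocorticoid response element, was lower in all 4 depots, by log2 fold changes of -0.90 ± 0.17, -0.82 ± 0.19, -0.67 ± 0.15 and -1.12 ± 0.18 (adjusted p = 0.000336, 0.00128, 0.00175 and 8.42e-06). ZBTB16, a zinc-finger gene, and PER1, a clock gene, were lower in MAD, by -0.84 ± 0.26 (adjusted p = 0.0113) and -1.06 ± 0.33 (adjusted p = 0.0135). DUSP1, a phosphatase gene that is also an immediate early gene, was higher in MAD (0.60 ± 0.17) and ULB (0.69 ± 0.19), and ANGPTL4, a lipase inhibitor raised by fasting, in ULB (0.92 ± 0.30). WG over NC was called for 2 higher and 0 lower in GOM (CEBPD 1.53, ANGPTL4 0.96), 1 and 0 in MAD (ERRFI1 0.80), 2 and 1 in RAD (ERRFI1 1.10, ANGPTL4 1.00, CDKN1C -0.71) and 0 in ULB. The shares of all tested PCGs called there were 26.7%, 10.7%, 16.7% and 2.38%. Restricted to libraries of at least 88%, WL over WG was called for KLF9 in GOM, RAD and ULB (-1.01, -0.70 and -1.24) and for 0 of the 14 in MAD, where KLF9 stood at -0.44 (adjusted p = 0.335). WG over NC was then called for ERRFI1 in RAD alone (1.39, adjusted p = 0.0188). In these libraries the shares of all tested PCGs were 1.49%, 0.948%, 6.96% and 7.48% for WL over WG. For WG over NC they were 2.73%, 7.78%, 6.2% and 0.35%.

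Among 12 chaperones and coregulators of the receptors, WL over WG was called higher for 0 in each depot, and NCOR1, a corepressor of nuclear receptors, was lower in MAD (-1.07). HSPA8, a heat shock chaperone, was higher in WG than in NC in GOM (0.78), MAD (0.85) and RAD (1.10). Depots within WG and within WL differed for 0 of the 12. Of all tested PCGs, 5.4% to 17.9% were called between depots in WG and 4.34% to 16% in WL. Of the 6 to 8 tested steroid-converting enzymes, SRD5A1, a 5-alpha reductase that clears cortisol and activates testosterone, was lower in WL than in WG in the 4 depots (-1.12, -1.21, -1.02 and -0.78), and HSD17B4 in GOM (-0.71), MAD (-1.23) and ULB (-0.74). SRD5A2 was higher in ULB than in each VAT in WG (2.17, 1.69 and 0.95 over GOM, MAD and RAD) and in WL (1.94, 1.63 and 1.54). HSD11B2, the enzyme that inactivates cortisol in kidney, had group medians of 0.151 to 0.634 TPM. In the libraries of at least 88%, no call of WL over WG was left in MAD for either list or in GOM for SRD5A1 (-0.96, adjusted p = 0.139) and HSD17B4 (-0.48, adjusted p = 0.402), HSPA8 was called in MAD alone (0.88), and SRD5A2 in WL was not called over any VAT (1.56, 0.96 and 1.39). With these libraries 0.948% of all tested PCGs were called for WL over WG in MAD and 1.49% in GOM.

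Of the other steroid receptors, GPER1, a membrane oestrogen receptor, was higher in WG than in NC in GOM (1.31), MAD (0.99) and RAD (1.12). PGRMC2, a membrane progesterone receptor component, was lower in WL than in NC in GOM (-1.12), MAD (-1.30) and RAD (-0.91). ESR2, the other nuclear oestrogen receptor, had group medians of at most 0.279 TPM. Among the 5 or 6 tested oestrogen targets, RERG was lower in ULB than in GOM in NC, WG and WL (-2.20, -2.01 and -1.85), the opposite direction to ESR1, and CA12 was higher in ULB than in RAD in the 3 diets (1.78, 1.64 and 2.68). Among the SGK kinases and sodium channel genes, SGK2 was below its NC level in the 4 depots of WG pigs (-1.13, -2.07, -2.65 and -1.47), where SGK1 was not lower in any, and NEDD4L, a ubiquitin ligase that SGK1 phosphorylates, was lower in RAD than in GOM in NC (-1.274) and WL (-1.005). The GPER1 calls for WG over NC were lost with libraries of at least 88% (adjusted p = 0.0797, 0.155 and 0.0666), SGK2 kept its calls in MAD and RAD only (-2.21 and -2.71), PGRMC2 in WL was called in MAD and RAD (-0.85 and -0.80), and CA12 in ULB over RAD was not called in NC (adjusted p = 0.0654).

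The genes most like each of the 7 were found among 12308 others by the correlation of log2(TPM + 1) over all RNA-seq samples, which share pigs, depots and library quality. FKBP5 was most like EMP2 (r = 0.775), ZBTB16 (r = 0.773) and FBXO32 (r = 0.728), with r of 0.759, 0.752 and 0.676 after group means were removed. SGK1 was most like DUSP1 (r = 0.708), ATF3 (r = 0.705) and PLK3 (r = 0.7). NR3C2 was most like RUNX1T1 (r = 0.833), NCOA1 (r = 0.831) and BCL9 (r = 0.829). NR3C1 was most like VPS8 (r = 0.772), RNF144A (r = 0.762) and KATNAL1 (r = 0.759), with 0 of these among the first 3 by Spearman's correlation. HSD11B1 was most like ARHGEF25 (r = 0.726), WNT9A (r = 0.704) and C1RL (r = 0.674). ESR1 had the weakest likeness, to CRIM1 (r = 0.596), MORC4 (r = 0.591) and TLCD2 (r = 0.585). PGR was most like CBR2 (r = 0.772), FERMT1 (r = 0.752) and BTC (r = 0.73), with r of 0.184, 0.405 and 0.3 after group means were removed. Among the 7 themselves, FKBP5 and SGK1 had an r of -0.126 (-0.087 within groups), FKBP5 and NR3C1 of -0.294 (-0.058 within groups), and ESR1 and PGR of -0.267 that turned to 0.301 within groups.

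**Figure D5:**
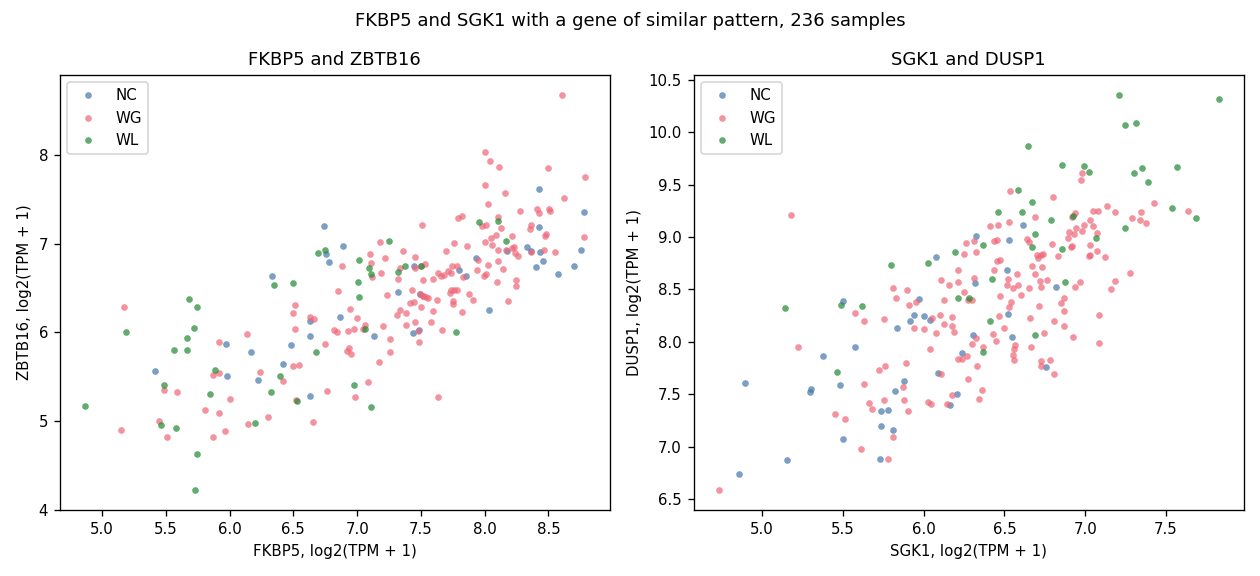
Log2(TPM + 1) of FKBP5 against ZBTB16 (left) and of SGK1 against DUSP1 (right), with a point for each RNA-seq sample, coloured by diet. FKBP5 and ZBTB16 rise together (r = 0.773), as do SGK1 and DUSP1 (r = 0.708), and WL samples sit toward low FKBP5.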

How the data were processed

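RNA-seq had been run on 236 samples and in situ Hi-C on 240. The authors quantified transcripts with kallisto 0.43.0 and deposited estimated counts and TPM per gene. From Hi-C reads, processed with tools that included BWA 0.7.15 and SAMtools 1.3.1 per the labels, the authors deposited an A-B index score per 20-kb bin. H3K27ac was deposited as 18 tables of enhancer regions ranked by signal, each made from pooled libraries. Depth is unknown for the index and the enhancer tables. The 9 columns of each expression table that matched no sample here were not used. Groups came from the labels.

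Estimated counts were rounded. Each comparison was fitted in edgeR 4.0.16 (R 4.3.3) with TMM factors and the quasi-likelihood test, keeping PCGs that passed 0.5 TPM in 80% or more of either group's samples, with Benjamini-Hochberg adjustment over all genes tested. Depot by diet interactions used all 12 groups, and the index was tested with limma 3.58.1. All p-values are two-sided except those of F tests. Correlations used log2(TPM + 1). The scripts were tested on simulated data.

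Alternatives were DESeq2 1.42.0, RLE factors, edgeR's exact test, no filter, a replicate block, libraries with at least 88% of TPM on PCGs, a term for the others, each NC ULB sample left out and, chosen after seeing the data, WG GOM replicate 35 left out and the lists read in libraries of at least 88%. Other alternatives were a quantile-normalized index, its mean over the gene, a 50-kb flank, Spearman correlation, a pseudocount of 0.1 and TPM rescaled over PCGs. Samples with the same replicate number deviated together (every pair's correlation over 0.1) in 4 of 18 depot comparisons: ULB and GOM in NC, ULB and MAD in WG, ULB and RAD in WG, and RAD and MAD in WL. In WG, GOM missed this rule by few pairs: 35 of 36 with MAD, 37 of 39 with RAD and 37 of 38 with ULB passed. Their median r was 0.637, 0.581 and 0.603, against -0.115, -0.0617 and -0.157 between different numbers. Over all samples, the consensus correlation within a diet and number was 0.435 by limma. The main tests took all samples as independent. The pairing comes from the numbers in the labels, and the sources used here do not say that a number marks a pig.

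The 8 genes and all lists were chosen with earlier results of these data known. All 8 were to be named, with at most 4 called genes of each pathway list per comparison, by size, and the 3 genes most like each. Some genes of the lists are not reported here. Coordinates and sequences are from RefSeq (Sscrofa11.1).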

Additional observations from a re-analysis of the deposited data

Results flagged for a closer look

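Of 84 groups of 4 to 10 samples checked (TPM or index of a gene), 9 held a sample far from the others by Dixon's ratio. Its critical values are for independent normal samples, whereas TPM was untransformed here and the genes share libraries. No rate expected by chance is therefore given. In WL ULB the highest sample lay apart for HSD11B1 (172.0 TPM, the next 105.6), FKBP5 (286.9 TPM, the next 165.5) and SGK1 (225.9 TPM, the next 126.2). The FKBP5 and SGK1 values came from different samples, replicates 9 and 8. The highest NR3C1 sample in WL GOM had 109.3 TPM (the next 89.4), and the highest NR3C2 sample in NC GOM had 19.02 TPM (the next 12.3). For the A-B index, the lowest NR3C1 sample had 1.149 in NC GOM and 2.629 in WL RAD, and the highest ESR1 sample had 1.671 in NC ULB and 4.898 in WL GOM. In the main fit, which took all samples as independent, PGR was the 1 gene of the 7 with a diet effect that differed between depots. This was so in WL over WG (adjusted p = 5.212e-05, edgeR's F test) and in WL over NC (adjusted p = 0.02101). With the replicate number as a random effect, HSD11B1 was called too, for WG over NC and WL over WG, as given below.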

How the results depend on the processing

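Of 45 calls, 27 held in all alternatives, and 17 further pairs of gene and comparison were called in some alternative, which makes 62 called in any. The 83 changes of sign in expression were all in pairs that were called in no alternative. With the replicate number as a block, calls fell from 3 to 0 for WG over NC and from 7 to 4 for WL over NC. This fit kept only numbers found in both groups. In GOM, MAD, RAD and ULB it called 795, 13, 795 and 0 of all tested PCGs for WG over NC (from 3812, 1477, 2266 and 323). For WL over NC it called 5353, 3697, 3395 and 299 (from 5214, 4689, 3685 and 2048). With the number as a random effect in limma, the interaction gained 1 call for WG over NC (HSD11B1, adjusted p = 0.0360) and 1, to 2 in all, for WL over WG (HSD11B1, adjusted p = 0.0225). In the diet comparisons the samples share only a number. In the 4 depot comparisons where every pair's correlation passed 0.1, the block changed no call other than the ESR1 and PGR values given above. In the rest, SGK1 was called for MAD over GOM in NC (0.635, adjusted p = 0.00346 by edgeR's quasi-likelihood test). ESR1 was called for ULB over MAD in WL (0.655, adjusted p = 0.0253), and FKBP5 gained the calls given above. HSD11B1 lost its call for MAD over GOM in WL (-0.713, adjusted p = 0.126). With libraries of at least 88% PCG share, calls went to 1 for WG over NC, 5 (from 8) between depots in WL and 0 (from 1) for the interaction of WL over NC. Leaving out each NC ULB sample gave 0 to 1 calls in that interaction. The mean index over the gene gave 10 calls (from 4) for WL over WG. Among the pairs of gene and index comparison called in any setting, quantile normalization turned the sign of the index difference for PGR in ULB over MAD (-0.0662) and RAD (-0.36) in WG and in WL over WG in ULB (0.10), and for NR3C2 in WL over WG in GOM (-0.0401) and ULB (-0.0388). The cause was not tested. Depth is unknown for the index, and comparisons with NC ULB rest on 5 samples.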

Other observations

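Markers of other cell types were read as lists, each with the number of genes called in WL over WG. Of all tested PCGs, 5.26%, 17.4%, 6.37% and 8.12% were called there in GOM, MAD, RAD and ULB. Of 5 lymphocyte markers, 5 were higher in MAD and 0 in GOM, RAD and ULB, where 3 or 4 were tested. In MAD their summed TPM had lowest, median and highest values of 36.7, 89.9 and 649 in WG. In WL MAD these were 71.9, 115 and 1222, so the ranges overlapped and the highest libraries lay far above the medians. Macrophage markers were called lower for 1 of 5 in GOM and 1 of 5 in MAD and for 0 elsewhere, while WG over NC was called higher for 5 of 5 in MAD and 2 of 5 in RAD. For WG over NC, 10.7% and 16.7% of all tested PCGs were called in MAD and RAD. Of 7 adipocyte markers, 2 were lower in MAD and 3 higher in ULB. Fat progenitor markers were lower for 1 of 5 in GOM and 2 of 5 in MAD, and 1 was higher and 1 lower in ULB. Endothelial markers were called for 1 of 3 in MAD, higher, and smooth and skeletal muscle markers for 1 of 4 in MAD, lower, with 0 calls of either list in the other depots. KRT10, the 1 skin epithelium marker tested, was called in 0 of the 4 depots, and 1 of 3 mesothelial markers was lower in MAD. With libraries whose PCGs held at least 88% of the summed TPM, WL over WG in MAD was called for 0 markers of each of these lists. In that setting 0.948% of all tested PCGs were called, so lists this short say little there.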
